A study of Mus musculus with 4 samples.

Results

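The proteins of the cytoplasmic ribosome were followed through the 4 single-cell libraries of mouse pancreatic islets. Genes were taken by symbol: Rpl or Rps followed by a number, with at most a letter and a paralog ending, together with Rplp0, Rplp1, Rplp2 and Rpsa. Hyphenated pseudogene names and the kinases of the Rps6k family were left out. The rule found 84 of the 32285 genes in the tables, 52 with large subunit symbols and 32 with small subunit symbols. The rule uses symbols alone.

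Islets came from male mice that were either wild-type at Pax4 (WT) or homozygous for a knock-in allele (HH). The allele carries the R200H substitution at the endogenous mouse gene, the counterpart of the human R192H variant, so every cell of the animal carries it, and the study used littermates. Mice were 12 weeks old on a standard chow diet (SCD) or 16 weeks old with the last 4 weeks on high-fat feeding (HFD), so that diet and age cannot be told apart. Each of WT SCD, HH SCD, WT HFD and HH HFD was 1 library from the pooled islets of a few animals. No difference between libraries therefore had a replicate check, a group cannot be told apart from its library, and no test was made. The 95% intervals given reflect counting alone. Pax4 had 0 UMIs in the tables used here, and the genotype could not be read from the counts.

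A ribosome is built from ribosomal RNA and a set of ribosomal proteins, nearly all of them present in equal number. The small subunit reads the messenger RNA, the large subunit forms peptide bonds, and the acidic stalk of Rplp0, Rplp1 and Rplp2 recruits the elongation factors. Many transcripts of these proteins begin with a C followed by an unbroken run of pyrimidines, the terminal oligopyrimidine motif, through which mTORC1 and Larp1 control their translation. In beta cells, which make and secrete large amounts of insulin, most messenger RNA encodes hormones, and the ribosomal protein transcripts share the remainder with all other genes.

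Start site windows are shown to let the pyrimidine run be seen in Rpl15, which has the longest, and in members whose values are given later. The RefSeq promoter table (GRCm38.p6) held entries for 64 of the 84 genes. A start at C followed by at least 4 further pyrimidines was present at 1 or more annotated starts of 13 of these 64 genes (20.3%) and in 2.97% of 26961 other genes in the same table. In the lines that follow, each run of 30 bases holds 15 bases before the annotated start and 15 from it, 5′ to 3′ on the gene's strand, with the pyrimidine run in capitals.
Rpl15: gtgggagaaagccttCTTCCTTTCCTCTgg
Rpl35: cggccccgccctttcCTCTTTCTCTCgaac
Rpl35a: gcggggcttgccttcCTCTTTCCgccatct
Rps27: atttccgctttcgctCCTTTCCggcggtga
Rplp2: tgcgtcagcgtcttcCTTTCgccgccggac

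Rpl15, with the longest run of 13 bases, lies at chr14:18270972-18271001 on the minus strand, and Rpl35 at chr2:39005117-39005146 on the minus strand. The Rpl35a window lies at chr16:33056467-33056496 on the plus strand and is 1 of 3 annotated starts of that gene, of which the other two have no such run. The other windows are those of Rps27, at chr3:90213634-90213663 on the minus strand, and Rplp2, at chr7:141447636-141447665 on the plus strand. The letters CCGGAAG, searched on both strands of the 300-base window as a form of the ETS family site, were found in 40.6% of the 64 genes and 9.85% of the others. AAGATGG, a form of the YY1 site searched in the same way, was found in 15.6% and 7.26%. A run that starts a few bases from the annotated start was not counted, so these shares describe the annotation and its letters.

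The libraries held 68011082 to 104810105 UMIs. Filters kept 1946 to 4135 cells a library, and the WT HFD library kept the smallest share of its barcodes, 36.7%. Clustering was done without the 84 genes. Beta-like clusters held 7 or 8 of 8 beta cell markers, alpha-like clusters 7 of 7 and delta-like clusters 5 of 5, and the classes beta-like, alpha-like, delta-like, PP-like and endothelial-like had at least 50 cells in every library. Any library pair shared 6 to 11 barcodes. Endothelial-like cells, which make no islet hormone, drew 1.49% (HH SCD) to 8.74% (HH HFD) of their UMIs from hormone genes and Ttr. The hormone genes were Ins1, Ins2, Iapp, Gcg, Sst, Ppy and Pyy, and Ttr, an alpha cell-enriched gene, was counted with them. The part of such foreign RNA in the class differences was not tested.

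Beta-like cells gave a smaller share of their UMIs to ribosomal proteins than any other compared class. The 84 genes took 3.44% of beta-like UMIs in the WT SCD library (3.43 to 3.44) and 3.36% in the HH SCD library. The WT HFD library gave 3.34% and the HH HFD library 3.93% (3.93 to 3.94), the highest of the 4. Alpha-like cells gave 10.7% on chow in both genotypes, then 9.56% (WT) and 10.2% (HH) under HFD. Delta-like cells gave 8.88%, 8.73%, 7.81% and 7.77% in the order WT SCD, HH SCD, WT HFD, HH HFD, PP-like cells 6.20%, 6.39%, 5.70% and 5.94%, and endothelial-like cells 9.53%, 9.49%, 8.95% and 9.01%. The lowest value of each other class lay above the highest beta-like value.

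**Figure D1:**
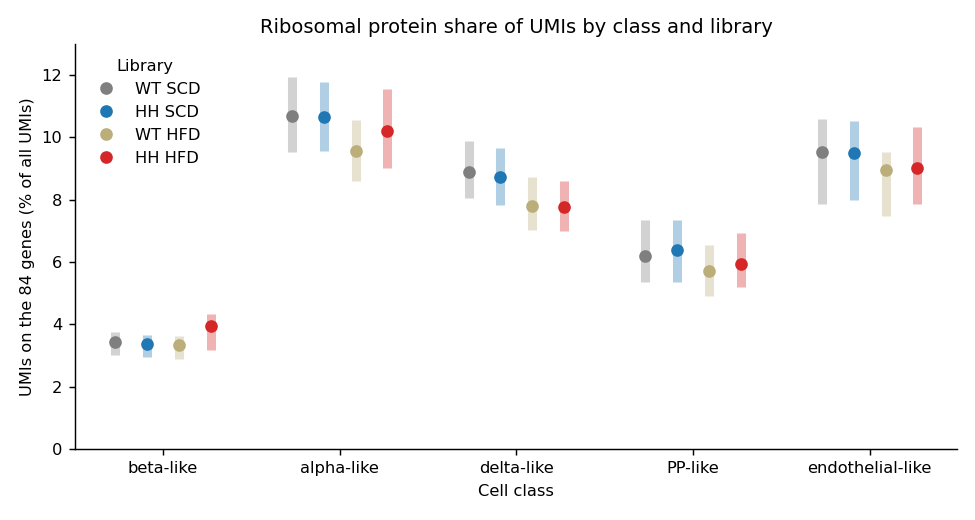
Share of UMIs on the 84 ribosomal protein genes, in percent of all UMIs of the class, for 5 cell classes and 4 libraries. Points are the share of the summed class and bars the range from the 25th to the 75th percentile over cells. Beta-like points lie between 3.34% and 3.93%, with HH HFD highest, and alpha-like points between 9.56% and 10.7%.

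Part of the distance between classes went with the hormone transcripts. Islet hormone genes, counted together with Ttr, took 58.4% to 61.5% of beta-like UMIs and 36.2% to 40.8% of alpha-like UMIs. Without hormone, Ttr and mitochondrial UMIs, the ribosomal protein share in beta-like cells was 9.50% (WT SCD), 9.67% (HH SCD), 9.44% (WT HFD) and 11.4% (HH HFD). The endothelial-like share on the same basis was 10.3%, 9.98%, 9.40% and 10.2%, and the delta-like share 13.2%, 13.1%, 11.3% and 11.7%. The PP-like share ran from 11.8% to 14.5%, and the alpha-like share, the highest in each library, 18.4%, 18.3%, 17.3% and 18.3%. Per cell, beta-like cells carried 924, 892, 993 and 972 ribosomal protein UMIs, and alpha-like cells 1346, 1214, 1560 and 1068, at different depths.

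Within beta-like cells the genes spanned a wide range of levels. Levels are in CPM, the UMIs of a gene scaled to a common class total, which need no division by length because the 3′ assay counts a molecule once. In WT SCD the highest were Rpl41, which encodes the shortest ribosomal protein, at 852 CPM (844 to 860), Rpl13 at 838 CPM (830 to 846), Rps24 at 836 CPM (828 to 844), Rpl19 at 791 CPM and Rpl10, a late-joining protein of the large subunit, at 757 CPM. The counting interval of Rpl13 overlapped those of Rpl41 and Rps24, so these neighbours were not separated by counting error. A minimum mean of 50 CPM was set for ratios, and the 80 genes past it were at 87.0 CPM or more in every library. The lowest of them were Rpl36a at 103 CPM, Rpl35 at 108 CPM, Rps27l at 118 CPM, Rpl22 at 136 CPM and Rpl31 at 145 CPM. Counts are uncertain where a gene shares sequence with a copy: 60 of the 84 genes have a named pseudogene, 292 in all, of which Rpl31 has 24. Over the genes with a UMI in WT SCD, level and number of named pseudogenes had a Spearman correlation of 0.084. Only pseudogenes named after a member were counted, and this value cannot show how many reads a gene lost to or gained from copies.

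The order of levels was nearly the same in both genotypes and changed more between diets and classes. In beta-like cells the Spearman correlation over the 84 genes was 0.996 between WT SCD and HH SCD and 0.991 between WT HFD and HH HFD, against 0.954 between WT SCD and WT HFD. Beta-like against alpha-like cells gave 0.929 to 0.944 within a library, and beta-like against endothelial-like cells 0.821 to 0.888. Points of one library share its depth and its free RNA. Rpl41 was ranked 1 of the 84 in both SCD libraries and 11 in both HFD libraries, where Rpl13 was ranked 1.

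Some genes stood out for 1 cell class when each was taken as a share of the ribosomal protein UMIs alone. The ratios given are the median over the 4 libraries of the log2 ratio of a class to beta-like cells. Rpl36al was at -2.00 in endothelial-like cells (-2.20 to -1.71 over libraries), -1.003 in alpha-like and -0.62 in delta-like cells. Rps27l was at -0.88 in endothelial-like, -0.71 in alpha-like and -0.74 in delta-like cells, and Rpl41 at -0.94, -0.69 and -0.58. These 3 genes were thus a larger part of the pool in beta-like cells than in the other classes in every library. In the other direction, Rpl35a was at 0.53 in alpha-like, 0.48 in delta-like and 0.40 in PP-like cells, and Rps3a1 at 0.44, 0.35 and 0.35. In endothelial-like cells Rpl35a was at 0.28 (0.21 to 0.32) and Rps3a1 at -0.29 (-0.36 to -0.23).

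The stalk genes did not go together across classes. Rplp0 was at -0.87 (-1.11 to -0.82) and Rplp1 at -0.59 (-0.69 to -0.59) in delta-like cells relative to beta-like cells, on the same scale, while Rplp2 was at -0.049 (-0.21 to 0.018). Rplp0 was also under its beta-like part of the pool in endothelial-like (-0.62), alpha-like (-0.39) and PP-like (-0.24) cells. In CPM, Rplp0 in WT SCD was 642 in beta-like, 937 in delta-like and 1590 in alpha-like cells. Rpl23 was higher in endothelial-like cells, at 0.68 (0.53 to 0.74). Rpl23, Rpl35a and Rps3a1 were among the genes with the widest range of log2 CPM over the 5 classes in WT SCD, at 2.20, 2.15 and 2.04. For Rpl23 this range ran from 449 CPM in beta-like cells to 2061 CPM in endothelial-like cells.

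Paralogs were read beside the genes they are named after. Rpl36al (chr12:69182731-69184083) was at 391, 415, 316 and 355 CPM in beta-like cells of WT SCD, HH SCD, WT HFD and HH HFD. Its X-linked counterpart Rpl36a (chrX:134585654-134588062) was at 103, 100, 87.0 and 106 CPM, so that the paralog exceeded its namesake in all 4 libraries. In endothelial-like cells the order was turned, with Rpl36al at 262, 255, 218 and 249 CPM and Rpl36a at 384, 419, 284 and 309 CPM. In alpha-like cells of WT SCD the values were 607 CPM for Rpl36al and 390 CPM for Rpl36a.

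The same turn between endocrine and endothelial-like cells was present for Rpl22l1 (chr3:28805436-28807424) and Rpl22 (chr4:152325742-152334071), an RNA-binding protein that represses its own paralog in other cells. In beta-like cells Rpl22l1 was at 214, 220, 145 and 172 CPM and Rpl22 at 136, 130, 114 and 142 CPM, in the order WT SCD, HH SCD, WT HFD and HH HFD. In endothelial-like cells Rpl22l1 was at 336, 358, 224 and 233 CPM and Rpl22 at 540, 620, 451 and 502 CPM. Rpl22l1 exceeded Rpl22 in each library of the 4 endocrine classes and lay under it in each endothelial-like sum. Rps27l (chr9:66946086-66949516), a p53-inducible paralog, was under Rps27 everywhere. In beta-like cells Rps27l was at 118, 126, 98.7 and 135 CPM and Rps27 at 300, 277, 212 and 219 CPM, while endothelial-like cells of WT SCD had 188 and 1040 CPM.

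**Figure D2:**
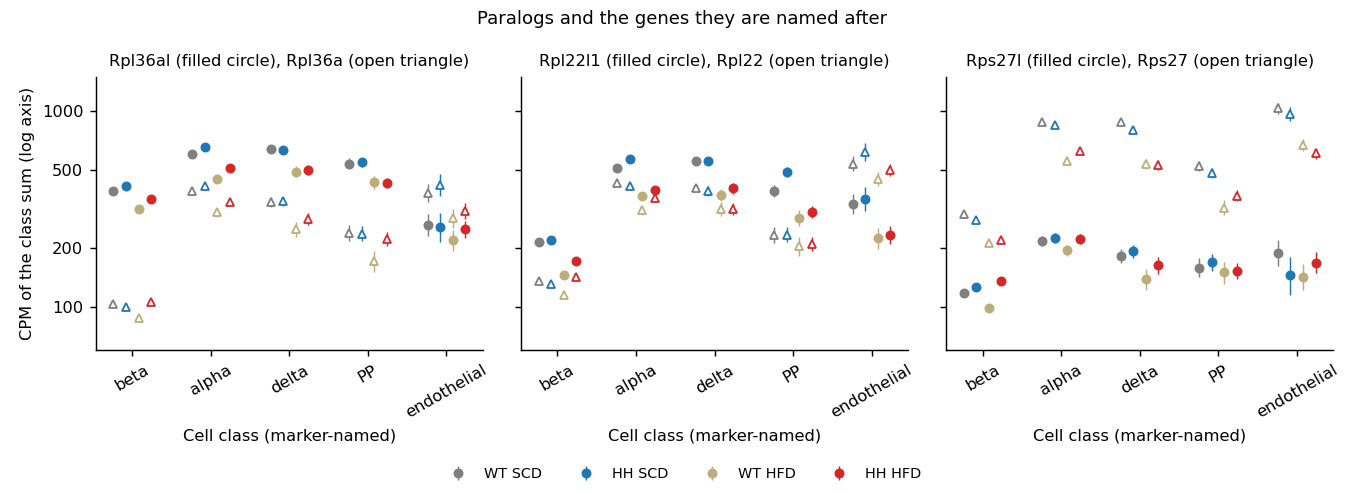
Levels of 3 paralogs (filled circles) and the genes they are named after (open triangles), in CPM on a log axis, for 5 classes and 4 libraries, with 95% counting intervals. Rpl36al and Rpl22l1 lie above Rpl36a and Rpl22 in the endocrine classes and under them in endothelial-like cells, and Rps27l lies under Rps27 throughout.

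The remaining paralogs were rare or not found. Rpl7l1, which acts in assembly of the large subunit in the nucleolus, was at 21.9, 20.9, 25.9 and 21.3 CPM in beta-like cells, under the minimum for ratios, beside 306, 294, 322 and 406 CPM for Rpl7. Rpl10l, a testis gene, had 0 UMIs in any barcode of the 4 libraries. Rpl3l, a muscle gene, and Rpl39l, best known from testis, had 0 beta-like UMIs but for 4 UMIs of Rpl39l in HH HFD. A count of 0 in beta-like cells allows up to 0.0567 CPM (WT SCD), 0.0587 CPM (HH SCD), 0.0928 CPM (WT HFD) and 0.0453 CPM (HH HFD). Their namesakes were at 757 CPM for Rpl10, 399 CPM for Rpl3 and 257 CPM for Rpl39 in WT SCD. With Rpl7l1 they were the 4 genes under the minimum.

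On chow, the ribosomal protein transcripts of the HH and WT beta-like libraries were within 1.2-fold of each other, gene by gene. The summed log2 ratio of HH to WT was -0.034 (-0.037 to -0.031), and the median of the 80 genes was -0.035, beside -0.043 for all 1397 genes past the same minimum. No gene of the 80 was 1.2-fold higher or lower, where 0.859% of all genes were at least 1.2-fold higher and 2.15% lower. The values ran from -0.11 to 0.10. The sum was above 0 under scalings that leave out Ins1, Ins2, Iapp and mitochondrial genes (0.0245) or use median-of-ratios factors (0.0086), with the median of all genes at 0.016 in the first of these.

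Within this narrow range the 3 paralogs past the minimum were among the 5 highest. Rps27l had the highest chow ratio, 0.098 (0.047 to 0.148), followed by Rpl36al at 0.086, Rplp0 at 0.078, Rpl27 at 0.054 and Rpl22l1 at 0.040. The lowest were Rps27 at -0.11, Rpl10 at -0.11, Rps3a1 at -0.10, Rpl37 at -0.097 and Rpl5, which binds Mdm2 when ribosome assembly fails, at -0.095.

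After the high-fat diet, ribosomal protein transcripts were a larger part of the beta-like RNA in the HH than in the WT library. Over all barcodes, cell types together, the share had the other order, 5.35% in WT HFD and 4.95% in HH HFD, beside 4.43% in WT SCD and 4.5% in HH SCD. The summed log2 ratio was 0.236 (0.233 to 0.239) and the median 0.243, beside -0.039 for all 1296 genes. Of the 80 genes, 79 had a ratio above 0 and 32 were at least 1.2-fold higher, where 11.3% of all genes were. None of the 80 was 1.2-fold lower, where 15.4% of all genes were. With 1 library a group these are differences between 2 pools of islets.

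The ratio was spread over both subunits and the stalk. Of 45 large subunit genes 14 were at least 1.2-fold higher (median 0.22), of 32 small subunit genes 16 (median 0.27), and of the 3 stalk genes 2. Rpl23 (chr11:97777527-97782437), which sits near the subunit interface, had the highest ratio. It was at 449, 432, 352 and 490 CPM in the same order of libraries, which gave a log2(HH/WT) of 0.48 (0.45 to 0.51) under HFD and -0.053 under SCD. Its WT HFD value was the lowest of the 4 and its HH HFD value the highest, so the ratio was made from both sides.

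Rpl32 followed with 532, 539, 473 and 657 CPM and a ratio of 0.47 (0.45 to 0.50). Rps27l was at 0.45 (0.39 to 0.51), Rps27a, which is made as a fusion with ubiquitin, at 0.44, with 698, 687, 604 and 821 CPM, and Rps12 at 0.43. For each of these genes WT HFD was the lowest library and HH HFD the highest. Rplp0 showed another order, with 642 and 677 CPM on chow, 752 and 998 CPM under HFD (WT, then HH) and a ratio of 0.41 (0.39 to 0.43). Rplp1 was at 0.33 with 704, 691, 614 and 770 CPM, and Rplp2 at 0.25 with 285, 278, 220 and 262 CPM.

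A few genes had nearly the same level in both HFD libraries. Rps2 (chr17:24718116-24721929), a small subunit protein at the messenger RNA entry, was at 573, 565, 594 and 582 CPM and had the only ratio under 0, -0.030 (-0.055 to -0.005), which was just above 0 (0.0034 and 0.0094) under the 2 other scalings. Rps27 at 0.049, Rpl13a at 0.069, Rpl8 at 0.084 and Rpl10 at 0.085 came next. Rpsa, known also as the laminin receptor, was at 692, 684, 832 and 908 CPM with a ratio of 0.13 (0.11 to 0.15). These genes were not 1.2-fold apart, and all of them but Rps27 were higher in both HFD libraries than in both SCD libraries.

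**Figure D3:**
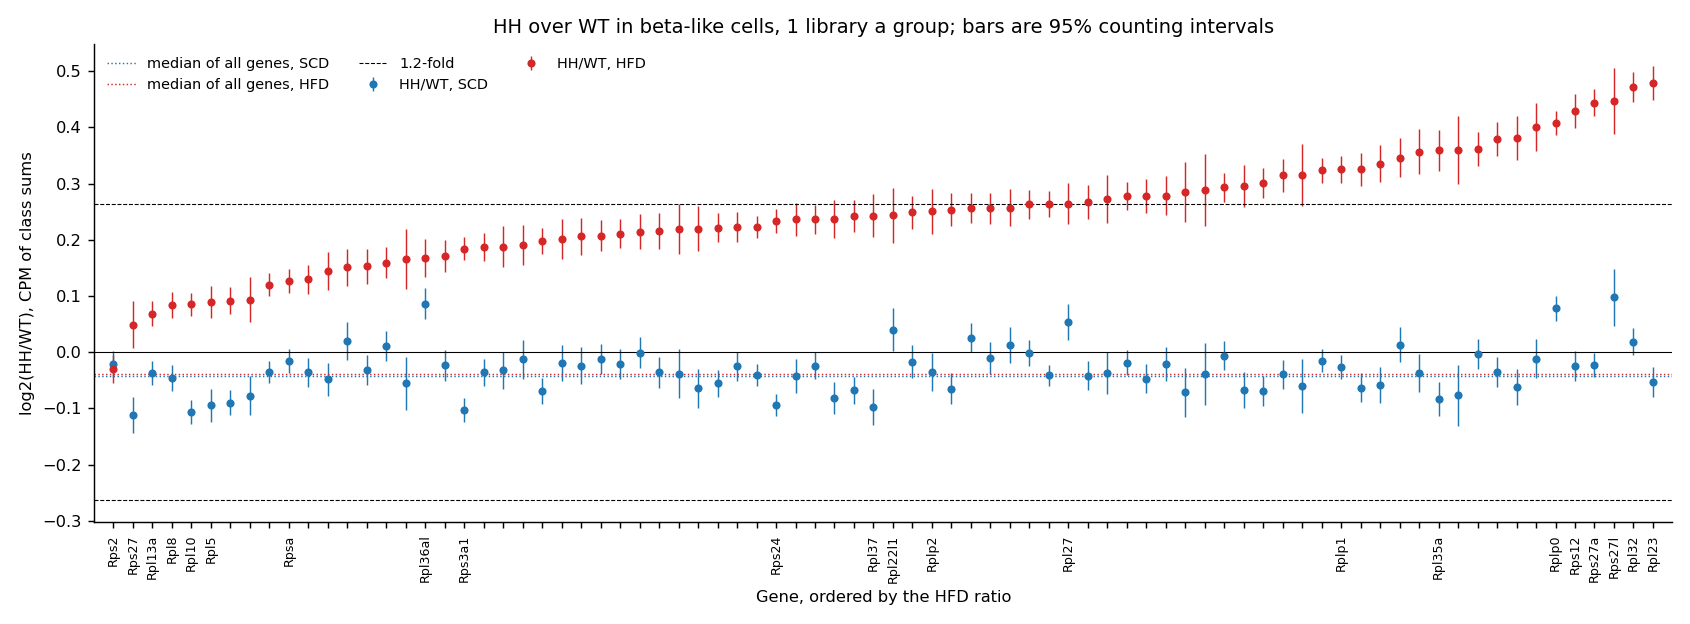
log2 ratio of HH to WT in beta-like cells for 80 ribosomal protein genes under HFD (red) and SCD (blue), ordered by the HFD ratio, with some genes named in the text labelled, 95% counting intervals, the medians of all genes (dotted) and the 1.2-fold limits (dashed). Under HFD 32 genes lie past the upper limit and 1 lies under 0, and under SCD all 80 lie between -0.11 and 0.10.

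Other features of these libraries moved with this ratio, and their part in it was not tested. Among genes at 200 CPM or more, the 189 other genes had a median of 0.007, with 22.8% at least 1.2-fold higher and 22.2% lower, while the 72 ribosomal protein genes had a median of 0.24 and 27 that were at least 1.2-fold higher. Among other genes with transcripts under 600 bases, 46 of 56 had a ratio above 0 (median 0.15). Mitochondrial genes took 5.02% of beta-like UMIs in the WT HFD library and 4.11% in the HH HFD library. The median depth of beta-like cells was 29683 UMIs (WT HFD) and 24058 UMIs (HH HFD). In cells with 20000 to 30000 UMIs the median share per cell was 3.12% (WT HFD) and 3.69% (HH HFD), and in cells with 10000 to 20000 UMIs 3.14% and 3.31%. In cells with 30000 to 50000 UMIs it was 3.30% (WT HFD) and 3.92% (HH HFD).

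The ratio was not even over the beta-like clusters, which were compared after their values had been seen. Chow cells fell mainly into clusters 0 and 1, and 915 WT HFD and 1157 HH HFD cells into cluster 2. Cluster 3 held 1363 HH HFD and 28 WT HFD cells. It was led by Dapl1 and by secretory pathway genes such as Fkbp11, Derl3, Creld2 and Sdf2l1, and its HH HFD cells had 134 CPM of Mafa, a maturity factor of beta cells, beside 298 CPM in cluster 2 of the same library. The ribosomal protein share was 4.20% in cluster 3 and 3.51% in cluster 2 of HH HFD, and 3.63% and 3.30% in WT HFD. The mitochondrial share moved the other way in HH HFD, with 3.78% in cluster 3 and 4.55% in cluster 2.

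Within HH HFD the log2 ratio of cluster 3 to cluster 2 had a median of 0.26 over the 80 genes, of which 40 were at least 1.2-fold higher, where 11.0% of all genes were. Rplp0 was highest at 0.54, followed by Rpl7 at 0.44 and Rpl23 at 0.43. In WT HFD, with 28 cells in cluster 3, the same contrast had a median of 0.12 and 7 of 80 genes at least 1.2-fold higher, where 8.48% of all genes were. Between the genotypes, the summed HH HFD to WT HFD ratio in cluster 2 was 0.086 (0.082 to 0.090), and 1 of the 80 genes was at least 1.2-fold higher, where 3.03% of all genes were. In cluster 14, led by Car15 and Cpb2 and with 44.3 CPM of Mafa in HH HFD, the 107 HH and 75 WT HFD cells gave a median of 0.26 and 41 of the 80 genes at least 1.2-fold higher, where 16.1% of all genes were. All beta-like cells but those of cluster 3 gave a summed ratio of 0.10 and 3 of the 80 genes at least 1.2-fold higher, where 3.6% of all genes were. Cluster 3 was nearly absent from the other libraries, and leaving it out took the ratio from 0.236 to 0.10. Without it Rpl10 (-0.041), Rpl5 (-0.018), Rpsa (-0.010) and Rpl8 (-0.0087) lay under 0 and Rps2 was at -0.19.

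**Figure D4:**
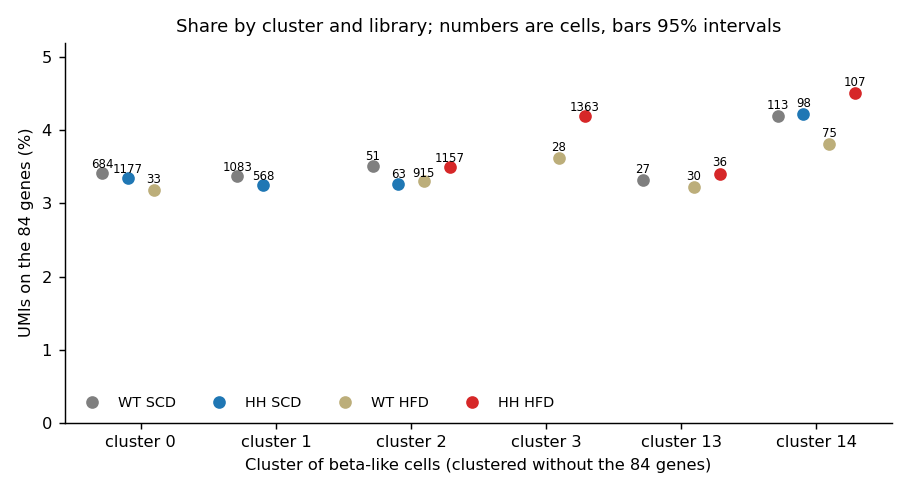
Ribosomal protein share of UMIs (percent) in each cluster of beta-like cells with 25 or more cells of a library, by library, with 95% intervals and the number of cells above each point. HH HFD cells are at 4.20% in cluster 3 and 3.51% in cluster 2, and in cluster 14 at 4.51% beside 3.82% in WT HFD.

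Other cell classes had smaller genotype ratios under HFD. In alpha-like cells the median was 0.12 beside 0.016 for all genes, and 1 of 80 genes was at least 1.2-fold higher (Rpl39, 0.29), where 3.36% of all genes were, and 0 were lower, where 3.26% of all genes were. The alpha-like median under SCD was -0.001, with 0 of 80 past the fold either way, where 2.46% of all genes were higher and 1.99% lower. Under HFD the median was 0.007 in delta-like cells (all genes -0.047), 0.070 in PP-like cells (all genes -0.084) and 0.025 in endothelial-like cells (all genes -0.11). Rps2 again had the lowest ratio, -0.13 for alpha-like and -0.23 for delta-like cells. Whether the beta-like ratio differs from that of another class was not tested.

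Between the diets, individual ribosomal protein genes moved in opposite directions. These comparisons share their libraries with those above, and age goes with diet. In WT beta-like cells the median log2(HFD/SCD) was -0.15, with 2 of 80 genes at least 1.2-fold higher and 16 lower, where 7.99% and 17.3% of all 1401 genes were. In HH beta-like cells the median was 0.20, with 32 higher and 2 lower, where 14.4% and 20.2% of all 1296 genes were. Rpl22l1 was at -0.56 in WT and -0.36 in HH, and Rps27 at -0.50 and -0.34, so both were lower under HFD in either genotype. Rpl5 was at 0.30 and 0.49 and Rplp0 at 0.23 and 0.56. Rpl35a was at -0.50 in WT and -0.058 in HH.

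These diet ratios went with transcript length, taken as the median length of a gene's annotated protein-coding transcripts in GENCODE M21, which need not be the one expressed. Over the 80 genes the Spearman correlation of log2(HFD/SCD) with length was 0.50 in WT and 0.54 in HH beta-like cells. The 23 genes under 600 bases, a limit set after the data were seen, had a median of -0.26 in WT, with 1 above 0, and the 57 longer genes a median of 0.051, with 31 above 0. In HH the medians were 0.045 and 0.27. In alpha-like, delta-like, PP-like and endothelial-like cells the correlation was 0.46 to 0.53 in both genotypes. Other genes under 600 bases had a median of -0.23 in WT beta-like cells beside -0.023 for longer genes, while over all other genes the correlation was -0.11. The genotype ratios in beta-like cells had correlations of 0.051 under SCD and -0.029 under HFD with length over the same 80 genes, while for other genes of beta-like cells they were -0.40 and -0.34. In the other classes the genotype ratio under HFD had correlations with length of -0.33 (alpha-like), -0.45 (delta-like), -0.38 (PP-like) and -0.25 (endothelial-like), and under SCD of -0.16 to -0.034.

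**Figure D5:**
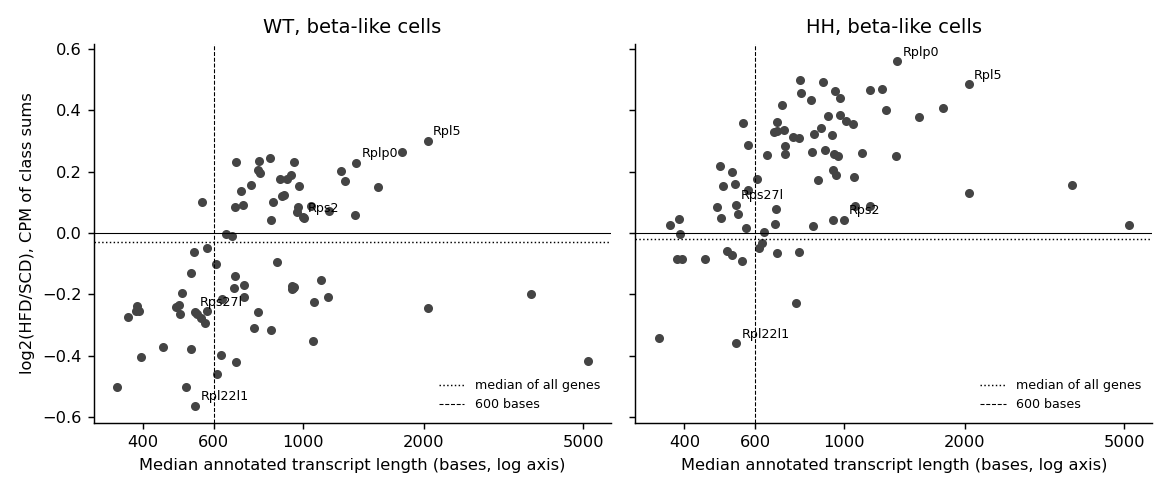
log2 ratio of HFD to SCD in beta-like cells against transcript length in bases on a log axis, for 80 ribosomal protein genes in WT (left) and HH (right), with the median of all genes (dotted) and 600 bases (dashed). Genes under 600 bases have medians of -0.26 in WT and 0.045 in HH, and longer genes 0.051 and 0.27.

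Genes with and without a pyrimidine run at the annotated start had overlapping genotype ratios. A gene whose run starts a few bases away was placed among those without, so the part of the motif itself was not tested. The 13 genes with a run in their annotated start had a median log2(HH/WT) of 0.25 under HFD (0.049 to 0.38), and the 47 genes with an entry but no run a median of 0.22 (-0.030 to 0.48). Under SCD the medians were -0.047 and -0.035. For HFD over SCD they were -0.26 and -0.13 in WT and 0.042 and 0.20 in HH.

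Other genes of translation were read from lists in the HH to WT comparison of beta-like cells under HFD, where 11.3% of all genes were at least 1.2-fold higher and 15.4% lower. Of 7 listed elongation factors 6 reached the minimum, all had ratios above 0, and 2 were at least 1.2-fold higher: Eef1b2 (0.44) and Eef1g (0.29), both of the exchange complex that recharges Eef1a1 (0.25). Eef1d, another subunit of that complex, was at 0.012 (-0.044 to 0.069). Of 6 ribosome-associated or ubiquitin-fused genes 5 reached it with 0 past the fold. Tpt1 was at 0.25, the ribosome scaffold Rack1 at 0.26, the nascent chain binder Naca at 0.22, Fau, a fusion of a ubiquitin-like protein with a small subunit protein, at 0.17 and Btf3 at 0.006. Of 29 initiation factors 17 reached it, with a median of -0.019, 0 higher and 1 lower, the helicase Eif4a1 at -0.27. The ranges of the lists overlapped, from 0.012 to 0.44 for elongation and from -0.27 to 0.22 for initiation factors, and no difference between lists was tested.

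Only 4 of 32 ribosome biogenesis genes reached the minimum. Npm1 (0.28) and Nop10 (0.27) were at least 1.2-fold higher and the nucleolar protein Ncl (-0.30) was lower. Of 19 genes of mTORC1, Larp1 and Myc only Rheb reached it (0.065). Of the 78 mitochondrial ribosomal proteins, which build the separate ribosome of that organelle, 8 reached it with a median of 0.091 and 0 past the fold. Under SCD 0 genes of these lists were past the fold.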

How the data were processed

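According to the labels and methods of the study, the authors prepared droplet 3′ libraries from pooled islets, aligned reads with Cell Ranger 6.0 to mm10 (GRCm38) and deposited filtered matrices of raw UMI counts. The members and lists were chosen with earlier results of these data known. Cells with under 10% mitochondrial UMIs, 3000 to 50000 UMIs and 2000 to 5000 genes were kept. Scrublet's automatic threshold called almost no doublets, so the highest-scoring cells were removed, as many as 0.8% per 1000 barcodes predicts (130, 118, 86 and 250). Clustering used 3000 variable genes without ribosomal proteins, 30 components, 20 neighbours and Leiden resolution 1. Clusters were named from at least 3 markers, as X-like, and names were rebuilt here. Raw counts as deposited were summed per class and library and scaled to CPM. Ratios needed a mean of 50 CPM, with exact binomial intervals, and a fold of 1.2 marked a difference. The intervals were tested on simulated counts that held counting error alone. Variation between cells or animals was not part of that test. Shares have Clopper-Pearson intervals. A count of 0 was given a floor of 3 counts. With 1 library per group there was no test. Genes are named in the text where, in beta-like cells, they had the 5 highest or lowest ratios in a diet or levels in WT SCD, the 5 widest ranges over classes, were paralogs with their namesakes, stalk genes or Rpsa. Some genes that the rule names are not reported here. Rpl15 lies outside this rule and is shown for its start site alone. Alternatives were 2 other cell filters, doublets kept, members in the clustering, resolution 2, other scalings, equal cell weights, subtraction of 5% ambient profile, cells with 15000 to 30000 UMIs, another gene list and minimums of 10 and 200 CPM; leaving out cluster 3 was added after seeing the data. Software was Python 3.11.15 with scanpy 1.11.5, igraph 0.11.9, scipy 1.17.1 and pandas 2.3.3.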

Additional observations from a re-analysis of the deposited data

Results flagged for a closer look

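In 7 of the 34 named ribosomal protein genes past the minimum, the HH to WT ratio in beta-like cells lay under 0 on chow and above 0 after the high-fat diet, with counting intervals clear of 0 and of the median of all genes. The log2 ratios under HFD and SCD were 0.36 and -0.08 for Rpl35a, 0.24 and -0.1 for Rpl37, 0.23 and -0.09 for Rps24, and 0.18 and -0.1 for Rps3a1. They were 0.09 and -0.09 for Rpl5, 0.08 and -0.11 for Rpl10, and 0.05 and -0.11 for Rps27. Opposite signs were common in the set, since 69 of the 80 genes past the minimum lay under 0 on chow and 79 of 80 above 0 after the high-fat diet. Rps27, Rpl10, Rps3a1, Rpl37 and Rpl5 had been named for the lowest chow ratios, so their low chow values came with that choice. How many of the 80 genes, or of all genes, meet the same rule was not counted. Rpl35a, Rpl37, Rps24, Rps3a1 and Rps27 kept both signs in 11 of 11 recomputed values. Rpl10 and Rpl5 kept them in 10 of 11, since without cluster 3 their HFD ratios were -0.041 and -0.018. Only Rpl35a passed 1.2-fold, under HFD. With 1 library a group, no test of the gap between diets was made.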

How the results depend on the processing

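No paired analysis was possible because each group had 1 library. The sign of the small SCD values depended on scaling. The summed SCD ratio (-0.034) was -0.027 with doublets kept, 0.0245 without Ins1, Ins2, Iapp and mitochondrial genes, 0.0086 with median-of-ratios factors, -0.039 after ambient subtraction and -0.066 in cells with 15000 to 30000 UMIs. The median (-0.035) was 0.023 without those genes, 0.0074 with median-of-ratios factors and -0.066 in that depth range. Of 34 named genes, 17 and 13 changed sign under SCD with these 2 scalings, and 1 (Rps2) did under HFD with each.

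The summed HFD ratio (0.236) stayed above 0 in every alternative run. It was 0.25 with a looser filter, 0.26 with doublets kept, 0.27 without Ins1, Ins2, Iapp and mitochondrial genes, 0.275 with median-of-ratios factors, 0.21 with equal weight per cell, 0.26 after ambient subtraction and 0.24 in cells with 15000 to 30000 UMIs. Without cluster 3, an alternative chosen after seeing the data, it was 0.10, the median 0.11 and the count past 1.2-fold 3 in place of 32, and 4 of the 34 named genes (Rpl10, Rpl5, Rpsa and Rpl8) changed sign. Of all genes, 3.6% were past it without cluster 3 and 11.3% in the main setting. Other settings gave counts from 23 to 46. The share of all genes was not taken under most of them, so these counts have no share to be read against. Counting error was small beside these shifts, and the variation between animals could not be measured.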

Other observations

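Cells outside the compared classes also differed in their ribosomal protein share. A cluster led by Igkc, Ighm, Lsp1, Apol7c and Ccr7 is left unnamed, since it was split under looser cell filters into a cluster led by Cd79a and an unnamed one led by Apol7c and Lsp1. It reached 50 cells in the WT HFD library alone, where 55 cells gave 16.2% of their UMIs to the 84 genes, with 16.2% on islet hormone genes and Ttr. Stromal-like cells of HH HFD (52 cells) gave 8.98%, with 24.5% on islet hormone genes and Ttr. An unnamed cluster with beta cell markers, led by Igkc, Ighm and cell cycle genes such as Mki67 and Top2a, held 70 HH HFD cells with a share of 4.93% and 23 HH SCD cells with 4.5%, beside 3.93% and 3.36% in the beta-like cells of the same libraries. Its Rps27l level in HH HFD was 186 CPM, beside 135 CPM in beta-like cells.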
